A study of Caenorhabditis elegans with 2 samples.

Results

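Binding of a GFP-tagged protein, F52B5.7, was examined at 71 genes that encode the protein factors of translation, out of 19973 nuclear protein-coding genes of Caenorhabditis elegans. The genes were chosen by symbol in the Ensembl gene models. They comprise 40 translation factor genes (eif, ife, ifg-1, ifet-1, iff and eef symbols) and 31 aminoacyl-tRNA synthetase genes (1 letter followed by ars-1 or ars-2). The symbol iftb-1 belongs to the rule but was not found among these gene models under that name. Chromatin immunoprecipitation and sequencing (ChIP-seq) used an antibody against GFP and sonicated chromatin of whole young adults of mixed sex. All animals were of strain OP606, which carries unc-119(tm4063) on chromosome III and the transgene wgIs606, a copy of F52B5.7 fused to GFP and FLAG at its C terminus. Collection was 63 h after the starved L1 stage used for synchronisation. The 2 biological replicates form 1 group, and no other strain or stage is part of the data. Because the animals were whole, a peak cannot be assigned to a tissue, and binding is that of a tagged copy from a single transgenic line.

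Translation factors carry a ribosome through a message. Initiation factors bring the initiator tRNA (eIF2, recharged with GTP by eIF2B), hold the small subunit ready (eIF3) and recognise the cap of the message (eIF4E and eIF4G), while elongation factors deliver aminoacyl-tRNAs (eEF1A) and move the ribosome along (eEF2). Aminoacyl-tRNA synthetases attach each amino acid to its tRNA, with separate enzymes for the cytosol and the mitochondria in many cases. Many C. elegans transcripts are trans-spliced, a process that removes the original 5′ end, so an annotated transcription start site (TSS) can lie downstream of the true start.

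A gene was called bound when the summit of a region in the optimal list lay in its promoter window, from 1000 bp upstream to 500 bp downstream of a TSS. The optimal list holds the 1032 regions kept by the authors after comparing lists by reproducibility. These were the 1032 strongest of 30000 pooled candidates by the authors' own signal value, which has no stated scale and is given here only within a list. The weakest optimal region had a signal of 115 and the strongest 2954, with a median of 147. Candidate lists of 30000 regions each were also given for replicate 1 and replicate 2. Read depth is unknown from these lists. Genes are not replicates of a condition, neighbouring genes can share a peak, and the intervals below cover counting error only.

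The sequences under 5 of the 7 bound peaks are shown because the results on bound genes rest on these regions. They are given 5′ to 3′ on the strand of the named gene from the RefSeq sequence of ce11, 75 bases to each side of the summit, stopped before any annotated untranslated base. Capitals mark matches, on either strand, to the 6-base motifs discussed further on. The sequences are iff-2 (chrII:8561370-8561520, minus strand), ifet-1 (chrIII:4475576-4475726, minus), eef-1A.2 (chrX:7823186-7823336, plus), eif-2Bgamma (chrII:6968315-6968465, minus) and ears-2 (chrIV:390469-390559, minus).
iff-2: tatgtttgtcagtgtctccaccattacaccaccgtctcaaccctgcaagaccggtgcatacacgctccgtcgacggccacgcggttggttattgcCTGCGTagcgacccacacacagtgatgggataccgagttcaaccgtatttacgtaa
ifet-1: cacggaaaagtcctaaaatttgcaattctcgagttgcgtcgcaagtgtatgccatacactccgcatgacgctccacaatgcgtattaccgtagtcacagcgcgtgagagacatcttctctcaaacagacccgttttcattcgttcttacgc
eef-1A.2: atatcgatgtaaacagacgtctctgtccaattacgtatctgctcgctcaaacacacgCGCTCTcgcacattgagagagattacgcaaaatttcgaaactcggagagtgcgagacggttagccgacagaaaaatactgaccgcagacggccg
eif-2Bgamma: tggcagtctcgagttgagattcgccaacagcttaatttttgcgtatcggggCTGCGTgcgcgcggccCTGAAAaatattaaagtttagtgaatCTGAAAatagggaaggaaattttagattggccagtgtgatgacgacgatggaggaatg
ears-2: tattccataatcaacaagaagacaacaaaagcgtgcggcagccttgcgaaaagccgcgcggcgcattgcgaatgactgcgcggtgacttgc
The ears-2 sequence of 91 bases is the entire gap between ears-2 and the gene on its other side, uncp-18. The eef-1A.2 sequence lies 318 to 468 bp upstream of its start.

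Translation factor genes were bound in 6 of 40 cases: iff-2, ifet-1, eif-3.C, eif-2Bgamma, eef-1A.2 and eif-3.J. This is 15% (95% exact Clopper-Pearson interval 5.71 to 29.8), beside 3.004% of all protein-coding genes. Aminoacyl-tRNA synthetase genes were bound in 1 of 31 cases, ears-2 (3.23%, 0.0816 to 16.7), a share near the 3.004% of all genes. The intervals of both groups overlap, and the difference between the groups was not tested. All 6 translation factor summits and that of ears-2 lay upstream of the TSS, as did 445 of the 600 strongest summits at bound genes in general (74.2%). The median signal of the strongest peak was 165 over the 6 translation factor genes and 148 over all 600 bound genes.

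Leaving out a replicate changed the translation factor count. The 1032 strongest regions of replicate 2 gave 7 of 40 genes (17.5%, 7.34 to 32.8; all genes 3.05%), namely the same 6 and eif-3.B. The 1032 strongest regions of replicate 1 gave only 3 of 40 (7.5%, 1.57 to 20.4; all genes 2.61%), namely iff-2, ifet-1 and eif-3.C. The count in replicate 1 is 2 times lower than in the optimal list, and its interval includes the share of all genes. The width of the window mattered too. From 500 bp upstream, the optimal list gave 3 of 40 genes, iff-2, eif-3.C and eef-1A.2, beside 2.23% of all genes. Within 250 bp of a TSS it gave iff-2 alone, beside 1.34% of all genes. Among the synthetases, ears-2 was bound in both, and qars-1 was added in replicate 2 (2 of 31, 6.45%, 0.791 to 21.4). The qars-1 summit in replicate 2 lay inside the gene, 178 bp upstream of an internal TSS.

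**Figure D1:**
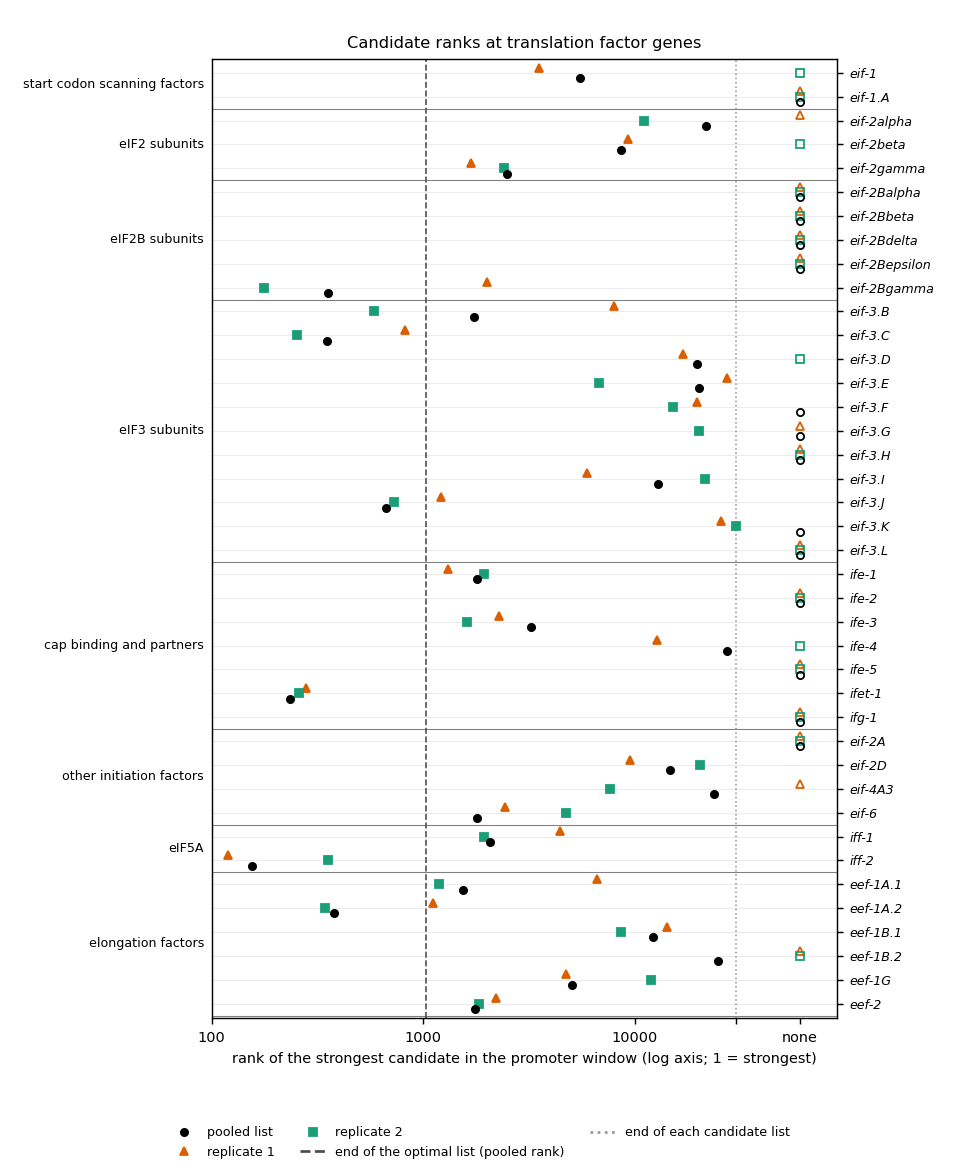
Rank of the strongest candidate in the promoter window of each of the 40 translation factor genes (log axis, 1 is strongest) in the pooled list and in each replicate, grouped by role, with open symbols for genes without a candidate in that list. The 6 bound genes lie left of the dashed line at rank 1032 in the pooled list, and 3 of them lie left of it in replicate 1 too.

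The elongation-linked factor iff-2 had the strongest peak of the group. It encodes an eIF5A, a factor that binds the ribosome and helps it past difficult stretches. Its peak, 107 bp wide with the summit 78 bp upstream of the nearest TSS, had a pooled signal of 217 at rank 155. In replicate 1 the signal was 125 at rank 120, and in replicate 2 it was 89.4 at rank 353. Both replicate summits lay within 3 bp of the pooled one, so the position was the same in both lists. The peak also fell in the promoter window of F54C9.14, a divergent gene whose TSS is farther away, at 857 bp. The other eIF5A gene, iff-1, which is known for its part in germ cell proliferation, was not bound. Its best pooled candidate, at rank 2055, lay in coding sequence of the neighbouring gene cdk-1, 818 bp upstream of iff-1. This candidate was also in the window of T05G5.4, 923 bp upstream of its TSS.

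The translational repressor gene ifet-1, which encodes the worm 4E-T, a partner of the cap-binding protein eIF4E, had a peak of 123 bp at rank 235 with a signal of 190. Replicate 1 gave a signal of 96.5 at rank 279 and replicate 2 one of 97.6 at rank 258, the closest match of ranks among the bound genes. The summit lay 501 bp upstream of ifet-1 but only 267 bp upstream of rps-1, a gene for a protein of the small ribosomal subunit that is read in the opposite direction. It also lay inside the noncoding RNA genes F56F3.10 and F56F3.11, which overlap each other. When each peak was given only to the nearest TSS, ifet-1 was no longer bound. The other 5 bound translation factor genes remained, beside 2.45% of all genes.

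The other genes of cap recognition had no optimal peak. They encode eIF4E forms (ife-1 to ife-5) and the scaffold eIF4G (ifg-1). Of these 6 genes, ife-1 came closest at rank 1789 with a summit in its own coding sequence, 114 bp after a TSS. This summit also lay in the window of acaa-2, 999 bp upstream of its TSS. In the replicates ife-1 ranked 1304 and 1943. The best candidate of ife-3 ranked 3211 and that of ife-4 27143. For ife-2, ife-5 and ifg-1 no candidate was found in any of the 3 candidate lists.

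The eIF3 complex, a large scaffold on the small subunit, was represented by 11 genes, of which eif-3.C and eif-3.J were bound. The eif-3.C peak had a signal of 165.3 at rank 352, with the summit 253 bp upstream of the TSS, in the gap after the end of sys-1. Replicate 1 gave 69.3 at rank 821 and replicate 2 gave 98.1 at rank 253, with summits 7 bp and 5 bp from the pooled one. The eif-3.J peak was the weakest of the bound set, with a signal of 134 at rank 668 and a summit 736 bp upstream. It ranked 1218 in replicate 1 and 731 in replicate 2, so replicate 1 placed it outside its strongest 1032 regions. Its summit lay closer to the 3′ end of the neighbouring gene slc-25A46 than to the start of eif-3.J.

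Of the other 9 eIF3 genes, eif-3.B was nearest to the threshold. Its candidate, 255 bp upstream, had rank 1735 in the pooled list and 586 in replicate 2. The replicate 1 region at the same place ranked 17776, and its best region elsewhere in the window 7973. The genes eif-3.D, eif-3.E and eif-3.I had pooled candidates between ranks 12797 and 19970. The genes eif-3.F, eif-3.G and eif-3.K had candidates in 1 or both replicates but not in the pooled list, and eif-3.H and eif-3.L had none in any list.

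Of the genes for factors that handle the initiator tRNA, the 3 eIF2 subunit genes were not bound and had candidates at ranks 2482 (eif-2gamma), 8570 (eif-2beta) and 21705 (eif-2alpha). Among the 5 genes of eIF2B, the exchange factor of eIF2, eif-2Bgamma was bound, and the other four had no candidate in any of the 3 candidate lists. The eif-2Bgamma peak had a signal of 165 at rank 354, with 54.8 at rank 2000 in replicate 1 and 110 at rank 176 in replicate 2. Replicate 2 ranked the region far higher than replicate 1, and its summit lay 100 bp from the pooled one.

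The remaining initiation genes were not bound. Those for the scanning factors eIF1 and eIF1A were at rank 5479 (eif-1) and without a candidate (eif-1.A). The best candidates ranked 1796 at eif-6, whose product keeps the ribosomal subunits apart, 14708 at eif-2D and 23598 at eif-4A3, whose product is part of the exon junction complex. At eif-2A there was none.

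The eif-2Bgamma peak covered noncoding RNA genes, among them sup-39 and mir-1831. The summits of both replicates lay inside sup-39. The pooled summit was 742 bp upstream, within an intron of C15F1.5, a gene on the same strand that ends 252 bp before eif-2Bgamma. The noncoding gene nearest to the pooled summit was C15F1.14, annotated as ncRNA, at 2 bp. It was followed by sup-39 at 4 bp and mir-1831 at 140 bp, which overlap each other and are both annotated as snRNA genes here, and the piRNA gene 21ur-14704 lay 52 bp away. Without peaks near tRNA, snoRNA or snRNA genes, eif-2Bgamma dropped out. This left 5 translation factor genes bound, beside 503 of all protein-coding genes (2.52%). A tRNA, snoRNA or snRNA gene lay within 250 bp of the strongest summit for 1 of the 6 translation factor genes and for 16.3% of all bound genes. Whether the signal belongs to one of these noncoding genes, to C15F1.5 or to eif-2Bgamma was not tested.

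Among the elongation factor genes, eef-1A.2 was bound and its paralogue eef-1A.1 was not. The eef-1A.2 peak had a signal of 162 at rank 380, with the summit 393 bp upstream and the next protein-coding gene start, that of R03G5.6, 6337 bp away. The noncoding RNA gene R03G5.8 lay 124 bp from the summit. Replicate 1 gave 64.1 at rank 1117 and replicate 2 gave 90.3 at rank 342. At eef-1A.1 the best candidate lay at a like distance, 401 bp upstream, but had a signal of 101 at rank 1537, with replicate ranks of 6635 and 1182. That summit was nearer to the divergent gene rfc-4, 140 bp from its TSS, and lay 28 bp from the miRNA gene cel-mir-5549. The replicates gave both genes in the same order, with eef-1A.2 ahead, and the difference has no test with 1 value per list.

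The eef-1A.1 window is shown for comparison with that of eef-1A.2 (chrIII:6972038-6972188, minus strand). It holds none of the 6 motifs.
eef-1A.1: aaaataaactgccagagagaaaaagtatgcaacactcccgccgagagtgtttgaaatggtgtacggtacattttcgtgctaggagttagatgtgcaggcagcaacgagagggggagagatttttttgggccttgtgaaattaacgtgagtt

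The gene of eEF2, the translocase, had its best candidate at rank 1756 with a signal of 96.8, 25 bp upstream of a TSS. This candidate also lay in the window of clsp-1, on the other strand, 240 bp upstream of its TSS. The ranks were 2207 in replicate 1 and 1833 in replicate 2, with signals of 53.4 and 53.3, so both replicates placed eef-2 below the threshold of 1032. The genes for eEF1B, which reloads eEF1A, and for eEF1G were farther down, with eef-1G at rank 5043, eef-1B.1 at 12225 and eef-1B.2 at 24624.

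**Figure D2:**
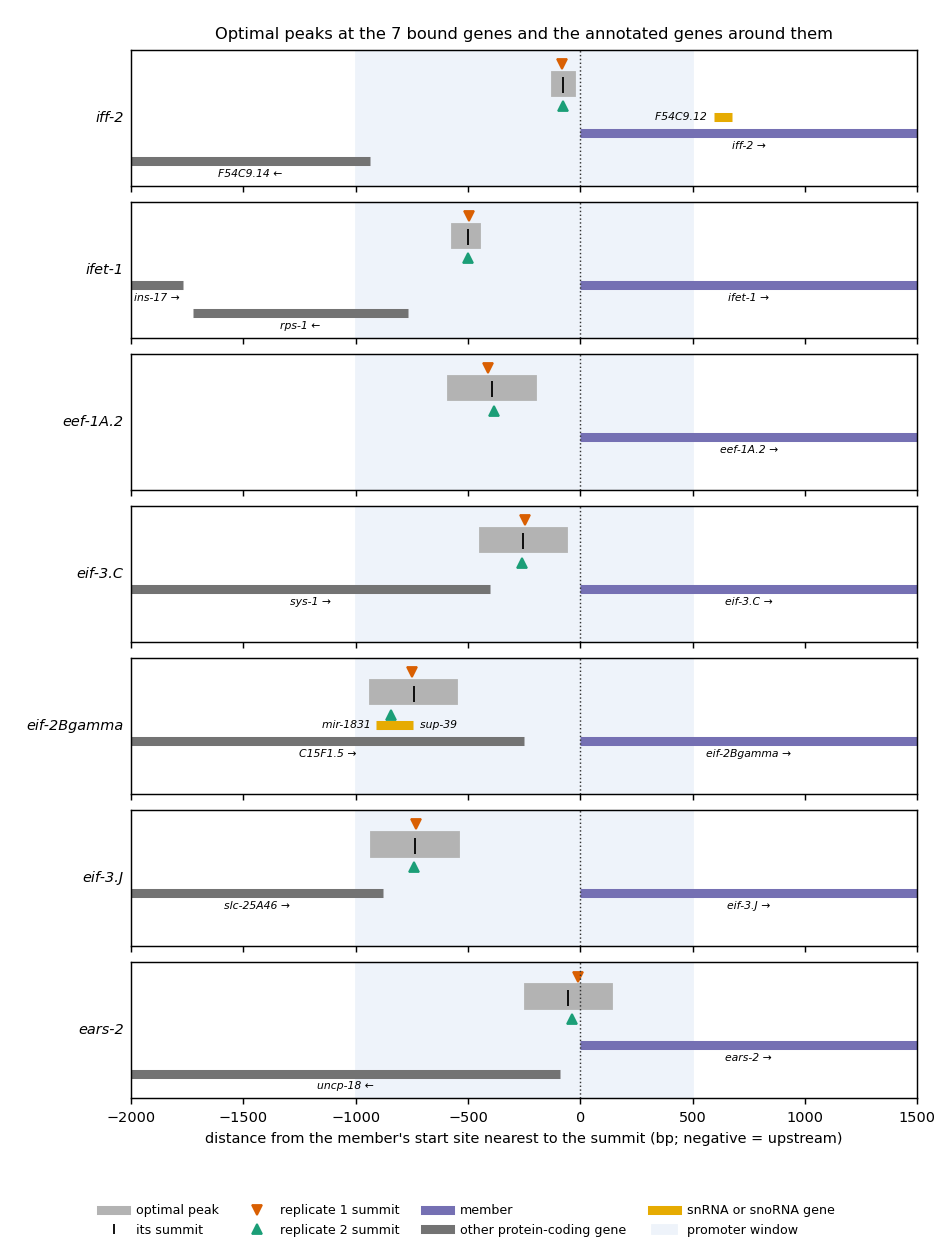
Optimal peaks (grey bars) and summits at the 7 bound genes, drawn by distance in bp from the TSS of the member nearest to the summit, with the promoter window shaded. All 7 summits lie upstream of 0. The eif-2Bgamma peak covers a gene annotated as snRNA, with the optimal summit beside that gene and the replicate summits inside it.

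Several translation factor genes lay below the threshold, though none was added among the strongest 1500 pooled candidates. Among pooled ranks 1033 to 2064 there were 6 more, namely eef-1A.1, eif-3.B, eef-2, ife-1, eif-6 and iff-1, at ranks from 1537 to 2055. With them 12 of 40 genes had a summit (30%, 16.6 to 46.5), beside 5.36% of all protein-coding genes. For the synthetases this gave 2 of 31 (6.45%, 0.791 to 21.4). Of the 6 added translation factor genes, ife-1, eif-6 and iff-1 had summits in coding sequence, which for eif-6 was that of pbs-2, a proteasome gene.

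**Figure D3:**
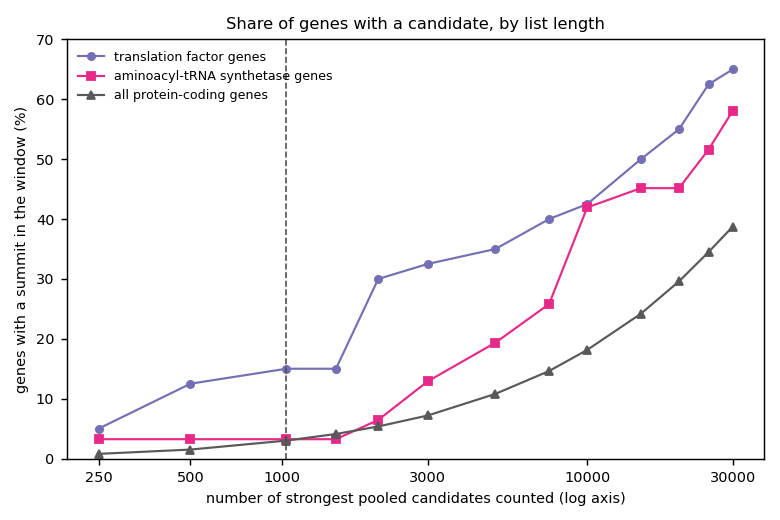
Percent of genes with a summit in the promoter window (vertical axis) against the number of strongest pooled candidates counted (log axis), for 40 translation factor genes, 31 synthetase genes and 19973 protein-coding genes. At 1032 regions the values were 15%, 3.23% and 3.004%, and at 30000 they were 65%, 58.1% and 38.7%.

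Over the full candidate lists, the shares of both groups were above the share of all genes. A pooled candidate lay in the window of 26 of 40 translation factor genes (65%, 48.3 to 79.4) and 18 of 31 synthetase genes (58.1%, 39.1 to 75.5), beside 38.7% of all genes. In replicate 1 the counts were 25 and 18, with 39.5% of all genes, and in replicate 2 they were 24 and 24, with 40.7%. For the synthetases the replicate 1 interval, 39.1 to 75.5, included the share of all genes. In replicate 2 it was 58.9 to 90.4. Windows differ in size where a gene has several TSSs. Their mean length was 1732 bp for translation factors, 2070 bp for synthetases and 1793 bp for all genes. The part of window length in these counts was not tested.

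No pooled candidate was found at 14 of 40 translation factor genes and 13 of 31 synthetase genes, beside 12238 of all 19973 protein-coding genes. No candidate in any of the 3 lists was found at eif-1.A, eif-2A, eif-2Balpha, eif-2Bbeta, eif-2Bdelta, eif-2Bepsilon, eif-3.H, eif-3.L, ife-2, ife-5 and ifg-1, nor at dars-1, dars-2 and sars-2. These are 11 translation factor genes and 3 synthetase genes, beside 8906 of all protein-coding genes. Each list ends at 30000 regions, so weaker signal would not be listed.

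The bound synthetase gene, ears-2, encodes the mitochondrial glutamyl-tRNA synthetase, per its RefSeq product name. Its peak had a signal of 202 at rank 199, with the summit 54 bp upstream of ears-2 and 38 bp upstream of uncp-18, which is read in the opposite direction. Replicate 1 gave a signal of 76.4 at rank 582 and replicate 2 one of 121 at rank 128. The replicate summits lay 42 bp and 19 bp from the pooled one, so the regions overlap but their centres differ more than at iff-2. With both starts inside the peak, the lists cannot say which gene it serves, and the nearest TSS was that of uncp-18.

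The other synthetase genes ranked lower. The closest were rars-2, gars-1 and qars-1. At rars-2, for the putative mitochondrial arginine enzyme, the rank was 2000 with a summit 39 bp upstream. At gars-1, for glycine, it was 2260 with a summit in coding sequence 26 bp downstream of an internal TSS. At qars-1, for glutamine, it was 2498 with a summit in an intron of qars-1, 277 bp upstream of an internal TSS. The replicate 2 regions at these places ranked 1044, 1069 and 287. In replicate 1 the region overlapping the pooled candidate ranked 13069 at rars-2 and 7401 at gars-1, and at qars-1 no region overlapped it. The best replicate 1 regions lay elsewhere in the 3 windows, at ranks 10633, 3255 and 7817. Replicate 2 placed all 3 genes higher. The other 14 synthetase genes with a pooled candidate had ranks from 3502 at iars-2, for isoleucine, to 28304 at vars-1, for valine. In replicate 1, iars-2 came next after ears-2, with a region at rank 2313 in another part of its window.

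RefSeq product names mark 4 of the 31 synthetases as mitochondrial, aars-1, ears-2, pars-2 and rars-2. All 4 had a pooled candidate, at ranks 23475, 199, 9321 and 2000. Of 10 marked as cytoplasmic, 6 had one and none was bound. The remaining 17 carry neither word, and 8 of them had a candidate. Of all genes, 38.7% had a pooled candidate and 3.004% were bound, and with so few genes in each class no difference between the classes is read from these counts.

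**Figure D4:**
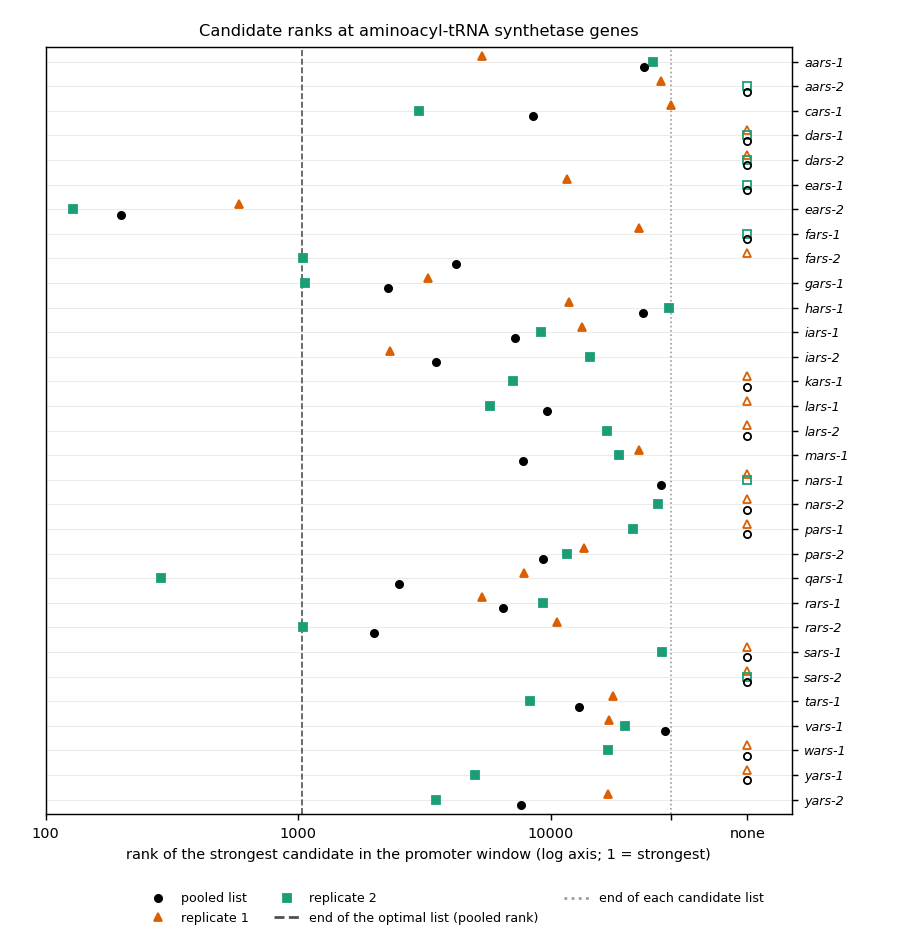
Rank of the strongest candidate in the promoter window of each of the 31 aminoacyl-tRNA synthetase genes (log axis, 1 is strongest) in the pooled list and in each replicate, with open symbols for genes without a candidate. Only ears-2 lies left of the dashed line at rank 1032 in all 3 lists, and qars-1 does so in replicate 2.

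The replicates were also compared over all candidates. A candidate was present in both replicates at 21 of the 40 genes, in replicate 1 alone at 4, in replicate 2 alone at 3 and in neither at 12. Across those 21 genes Spearman's rho of the ranks was 0.739, a description over genes in libraries that share a control. For synthetases the numbers were 15, 3, 9 and 4, and rho over 15 genes was 0.221. Over all 19973 protein-coding genes the numbers were 5227, 2653, 2899 and 9194. The strongest candidates of a gene can lie at different places in the 2 replicates. Of the bound translation factor genes, 3 of 6 had a peak that overlapped the 1032 strongest regions of both replicates, beside 47.3% of all bound genes. These were iff-2, ifet-1 and eif-3.C.

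Some bound peaks lay in the windows of several genes. The peak lay in the window of a further protein-coding gene for 2 of the 6 bound translation factor genes, iff-2 and ifet-1, beside 35.3% of all bound genes. On the ce10 build, each of the 7 peaks had a region of the same chromosome, width, summit offset and signal within 0.1% in the optimal list. The closest such region had the same rank as on ce11 for 6 of them, and rank 667 for eif-3.J. For eef-1A.2 and eif-3.J, 2 and 3 ce10 regions met these criteria, and the closest in signal was taken.

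Motif matches at the bound genes were few. Each motif was sought on both strands in the 151 bases centred on the 7 summits. ACGCAG was present at iff-2 and eif-2Bgamma, and in 13.8% of the 1032 optimal windows of the same length. AGAGCG was present at eef-1A.2, and in 14.1% of optimal windows. TTTCAG, the end of the usual trans-splice acceptor, was present at eif-2Bgamma and eif-3.C, and in 13.3%. At eif-2Bgamma the matches lay on the strand opposite to the gene, so they are not acceptor sites of its transcript. GTTCGA, a core sequence of the internal B box promoter of tRNA genes, was in none of the 7 and in 16.1% of optimal windows. GAACCC (11.8%) and ACCACT (15.8%) were in none of them either. GAACCC read on the other strand can overlap GTTCGA by 4 bases. In the 250 bases before to 50 after the gene start, ACGCAG was found at 4 of 40 translation factor genes, 2 of 31 synthetase genes and 8.23% of all genes. GTTCGA was found there at 3 and 2 genes of the groups and at 9.85% of all genes. TTTCAG was found at 25 and 20 genes, and at 51.7% of all.

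Other genes of translation outside the naming rule formed a list of 30 symbols, of which 26 were in the gene models. A single one was bound, drr-2, for a homologue of the helicase cofactor eIF4H (3.85%, beside 3.004% of all genes). Its peak had a signal of 206 at rank 191, 155 bp upstream, and the best regions in its window ranked 361 in replicate 1 and 138 in replicate 2. This peak also fell in the promoter window of set-16. The next was fars-3, for a phenylalanine synthetase subunit, at rank 1359, and the best regions in its window ranked 212 in replicate 2 and 20548 in replicate 1. Pooled candidates were present at 16 of the 26 (61.5%), beside 38.7% of all genes. They included those of inf-1, for the helicase eIF4A, at rank 7990 and of the poly(A)-binding protein gene pab-1 at 6217. Of the mitochondrial elongation factor genes, gfm-1 had a pooled candidate at rank 13725 and best regions at rank 3750 in replicate 1 and 1329 in replicate 2, and tufm-1, tufm-2 and tsfm-1 had none in any list.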

How the data were processed

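Peak lists came from ChIP-seq of 2 biological replicates. Per the file manifests, each replicate's candidates came from its alignments and a control, and the pooled candidates came from both replicates. The optimal list holds regions kept after comparison by the irreproducible discovery rate. For the aligner, peak caller and thresholds, no name or value was given in the sources used here, and the control was not analysed here. The signal value per region is the authors' own, on no stated scale. The deposited −log10 q value reached its ceiling of 2.98 in 476 pooled regions and was not used for ranking.

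The ce11 lists were read against gene models of Ensembl release 115 and RefSeq sequence of that assembly, and no coordinates were converted. Members, gene lists and motifs were chosen with earlier results of these data known. Named genes are the bound members, the 3 best unbound members of each group, genes sharing a peak, and members without a candidate. The 6 genes between ranks 1033 and 2064, and others named in passing by role, were chosen after their values were seen. With 1 group there is no test between conditions. Counts carry 95% exact Clopper-Pearson intervals. Where a gene has several regions in its window, the strongest is given. Ranks follow signal within a list. The window search was tested on simulated summits. Python 3.11.15, pandas 2.3.3 and SciPy 1.17.1 were used.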

Additional observations from a re-analysis of the deposited data

How the results depend on the processing

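No paired analysis was possible because there is a single group. Of 54 recomputed counts, 36 were within 1.5 times of the reported one. With 1 replicate left out, bound genes numbered 3 to 7 translation factors, 1 to 2 synthetases and 521 to 609 of all protein-coding genes. The lower translation factor count came without replicate 2. Pooled candidates were then replaced by those of 1 replicate, at 24 to 25, 18 to 24 and 7880 to 8126 genes. With 2064 pooled regions the bound counts were 12, 2 and 1070. A window starting 500 bp upstream left 3 translation factors with 446 of all genes, and one of 250 bp to each side left 1, with 267 of all genes and candidates at 12, 11 and 4205 genes. A window starting 2000 bp upstream gave 8 translation factors and 2 synthetases, with 815 of all genes. Overlap of the peak interval with the window also gave 8 and 2, with 672 of all genes. With each peak given to the nearest TSS only, 5 translation factors and 0 synthetases were bound, with 489 of all genes (2.45%). The ears-2 peak lies nearer to uncp-18. The stronger 516 optimal regions left 5 translation factors and 1 synthetase, with 307 of all genes. The strongest 15000 pooled candidates left 20 and 14, with 4831 of all genes. With 2064 regions of each replicate, all 6 bound translation factors were seen in both. With 516 regions the counts were 2 translation factors and 0 synthetases. A longer list makes such overlap easier for any bound gene, and no share of all bound genes is given for these settings. The causes of the other changes were not tested, beyond the number of regions or the window size that each alternative sets. Depth is unknown, so absence from a list does not show absence of binding.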
